A study of Homo sapiens with 9 samples.

Results

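The genes described here are the chaperones, folding enzymes, degradation factors and sensors of the endoplasmic reticulum (ER), chosen by gene name from the textbook account of the unfolded protein response. They number 36 of the 58735 genes counted in each library. By role they are 11 chaperones and co-chaperones, 7 thiol oxidoreductases, 5 sensors and transcription factors, 9 genes of ER-associated degradation (ERAD) and 4 genes of the translocon, of export and of the ER membrane. All were measured by RNA sequencing of MDA-MB-231, a human triple-negative breast cancer cell line, in 3 conditions of 3 libraries each. Vehicle-treated cells received DMSO. Erastin-R cells had survived increased concentrations of erastin, a blocker of the cystine importer system xc-, and RSL3-R cells had survived increased concentrations of RSL3, an inhibitor of the lipid peroxidase GPX4. Both populations of survivors, called resistant below after the -R in their names, come from 1 parental line. The labels say only that the cells were treated with erastin or RSL3. Doses, durations and whether drug was present when RNA was taken are not in the labels. Drug exposure and resistance therefore cannot be told apart here. The labels also do not say whether the 3 libraries of a condition were separate cultures, so the p-values may measure technical spread only.

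Secretory and membrane proteins fold in the ER with the help of chaperones and of enzymes that form disulphide bonds. When unfolded proteins accumulate, the chaperone BiP (HSPA5) leaves the sensors IRE1 (ERN1), PERK (EIF2AK3) and ATF6. IRE1 splices XBP1 mRNA into the form that encodes an active transcription factor, ATF6 is cut in the Golgi and releases another, and PERK phosphorylates eIF2alpha, which favours translation of ATF4. ATF6 and XBP1 are known for inducing chaperones and ERAD genes, whereas ATF4 induces amino acid transporters and synthetic enzymes and is also reached from GCN2 (EIF2AK4), the sensor of amino acid shortage. The comparison below sets the ER genes beside those of this amino acid response. Gene counts do not separate spliced from unspliced XBP1 mRNA.

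Total counts ranged from 15405102 to 17273464 per library, and 16188 genes passed the filter on low counts. Replicate 1 of erastin-R stood apart. Its mean squared difference from the other erastin-R libraries, in multiples of counting error, was 23.4 and 24.1, against 2.43 to 5.28 for all other pairs within a condition. Mitochondrially encoded transcripts took 7.95% of its counts and 5.55% and 5.84% in the other erastin-R libraries, against 7.97 to 8.93% in vehicle-treated and 9.52 to 10.2% in RSL3-R cells. Values that rest on erastin-R are therefore given with and without this library where a call changes, and the part of the mitochondrial share in the results was not tested. VIM, CD44, ZEB1 and MSN, expected in this line, lay between 129 and 1681 CPM (counts scaled to the TMM library size). ESR1 and PGR had at most 0.746 CPM and CDH1 and EPCAM at most 3.80 CPM. Of 6 markers of other cell types, CD3E, VWF and LUM had at most 0.382 CPM and PTPRC at most 1.49 CPM, and CD3E was at 0 in every erastin-R library. The 6 summed to 11.2 to 12.2 CPM in vehicle-treated, 1.91 to 3.16 CPM in erastin-R and 13.4 to 15.8 CPM in RSL3-R libraries. The endothelial marker PECAM1 had 9.54, 10.9 and 9.50 CPM in vehicle-treated, 2.14, 1.27 and 1.95 CPM in erastin-R and 13.1, 13.8 and 11.6 CPM in RSL3-R libraries, and the fibroblast marker DCN at most 1.07 CPM in any library. The part of these markers in the results was not tested.

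The promoters of several of these genes hold the ER stress response elements that ATF6 binds with NF-Y. They were searched on both strands of RefSeq promoter windows (GRCh38.p14), from 250 bases before to 50 bases after each annotated start, of which 32 of the 36 genes had at least 1. The ERSE, written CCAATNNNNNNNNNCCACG, lay in 27 of 35116 windows of all genes (0.0769%), and the ERSE-II, written ATTGGNCCACG, in 19 (0.0541%). Among the 32 genes, 8 held an ERSE and 3 an ERSE-II, 11 in all. Shown are the elements of the 9 genes among these 11 that passed the test in RSL3-R against vehicle-treated cells in either direction. Their fixed letters are the same by the search, and the letters between and around them differ. Capitals mark the fixed letters of each element, with 5 flanking bases on either side, 5′ to 3′ on the strand of the element. The first 6 lines belong to genes that were higher in RSL3-R than in vehicle-treated cells.
HSPA5: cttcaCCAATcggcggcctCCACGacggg
XBP1: gctggCCAATcgcggagggCCACGaccgt
ERO1B: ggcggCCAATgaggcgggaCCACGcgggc
HSP90B1, distal: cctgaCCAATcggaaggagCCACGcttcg
HSP90B1, proximal: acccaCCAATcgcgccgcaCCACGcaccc
HERPUD1: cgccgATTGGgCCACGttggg
CALR: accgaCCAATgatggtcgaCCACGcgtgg
CRELD2: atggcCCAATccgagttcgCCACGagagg
PDIA6: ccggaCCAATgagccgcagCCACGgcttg
SDF2L1: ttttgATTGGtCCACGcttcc
CALR, CRELD2, PDIA6 and SDF2L1 were lower. The element of HSPA5 (chr9:125241386-125241414, minus strand) lay 61 bases upstream of the gene in GENCODE release 29, that of XBP1 (chr22:28800598-28800626, minus strand) 6 bases, that of ERO1B (chr1:236282178-236282206, plus strand) 198 bases and that of HERPUD1 (chr16:56932020-56932040, plus strand) 13 bases. The element of CALR (chr19:12938379-12938407, minus strand) lay 176 bases and that of SDF2L1 (chr22:21642109-21642129, minus strand) 137 bases upstream. Those of CRELD2 (chr22:49918549-49918577, minus strand) and PDIA6 (chr2:10812848-10812876, minus strand) lay in introns of longer transcripts, upstream of a start further inside the gene. Both of HSP90B1 (chr12:103930211-103930239, plus strand, and chr12:103930316-103930344, minus strand) overlapped exons of longer transcripts. CANX held an ERSE and HYOU1 a pair of ERSE-II elements, and neither gene passed the test in RSL3-R. The core of the unfolded protein response element, TGACGTGG, was found in DNAJC10 and in HYOU1, there overlapping an ERSE-II, and in 0.729% of all windows. The amino acid response element was searched only as TGATGNAAT, so forms ending in another base were not counted. These letters were in none of the 40 windows of the ER genes and none of the 28 of the amino acid response genes. They were in 0.991% of all windows, and nothing about ATF4 follows from this search. DERL1, DERL3, PDIA3 and SEC24D had no window in the table. A match of letters describes the sequence and does not show binding.

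Erastin-R against vehicle-treated cells divided the ER genes in both directions. Of the 35 genes tested, 13 were higher and 11 lower at an adjusted p under 0.05 (edgeR's quasi-likelihood test, Benjamini-Hochberg adjustment over all genes tested), while 27.1% of all genes tested were higher and 26.8% lower. ERN1, SEC24D and ERO1B rose at least 2-fold, 3 of 35, where 6.7% of all genes did. None fell 2-fold by edgeR, whether p was adjusted or not, nor by DESeq2 or limma, where 6.66% of all genes did. In these bulk libraries, fewer cells expressing a gene and less RNA per cell cannot be told apart. The median log2 fold change was 0.05 over the ER genes and -0.004 over all genes tested. Without erastin-R replicate 1, 15 were higher and 12 lower, and XBP1 with a log2 fold change of 1.01 joined those past 2-fold.

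RSL3-R against vehicle-treated cells gave 14 genes higher and 8 lower, with 23.8% and 24.9% of all genes tested as background. ERN1, DNAJB9, ERO1B, HERPUD1 and XBP1 rose at least 2-fold, 5 of 35, where 6.02% of all genes did. By the same 3 tools none fell 2-fold, adjusted or not, where 4.08% of all genes did. The median log2 fold change was again 0.05, against 0.005 over all genes tested. The number of lower genes was 5 without vehicle replicate 3 or without RSL3-R replicate 1, and 11 without erastin-R replicate 1, which enters this fit through the shared estimate of spread. The ER genes took 0.965 to 0.972% of all counts in RSL3-R libraries, above every vehicle-treated library (0.856 to 0.874%) and every erastin-R library (0.857 to 0.903%). HSPA5 alone took 0.143 to 0.146% in RSL3-R and 0.0835 to 0.0837% in vehicle-treated libraries, the larger part of the rise, and without it the ER genes took 0.820 to 0.828% and 0.773 to 0.790%. Both comparisons use the same vehicle-treated libraries, so their values are given side by side and not as repeats of each other.

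**Figure D1:**
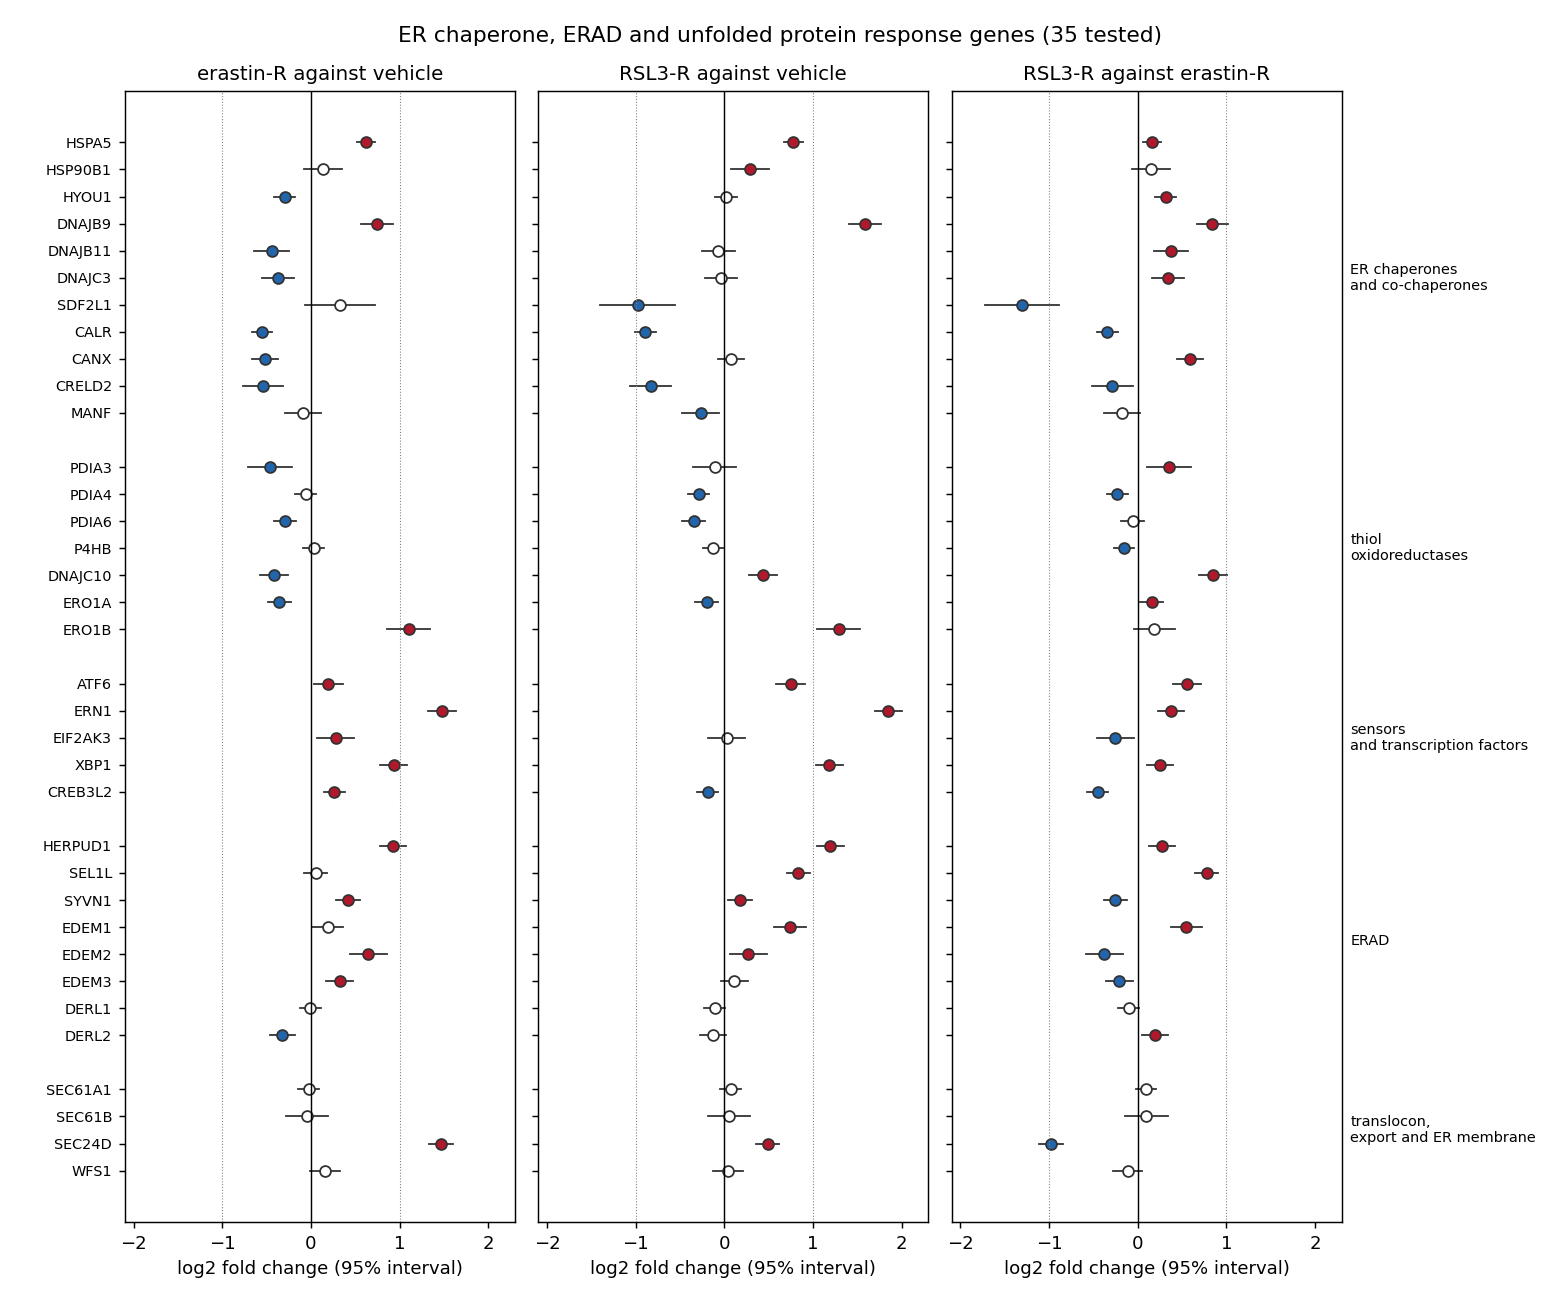
Log2 fold change (x axis) of the 35 ER genes tested (y axis, grouped by role) in each of the 3 comparisons, with 95% intervals from edgeR's fit of 3 libraries per condition. Filled points passed an adjusted p of 0.05 (red higher, blue lower), open points did not, and dotted lines mark 2-fold. ERN1 is the furthest right in both comparisons with vehicle-treated cells, and CALR, CRELD2 and several other chaperones lie left of 0.

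Most sensors were higher as mRNAs in at least 1 resistant population, to different degrees. ERN1, which encodes IRE1, had 28.4, 29.03 and 27.3 CPM in the vehicle-treated libraries, 72.3, 83.6 and 80.4 CPM in erastin-R and 101, 105 and 99.5 CPM in RSL3-R. The 3 conditions did not overlap, with RSL3-R highest. ERN1 rose 2.79-fold in erastin-R (log2 fold change 1.48 ± 0.07 SE, adjusted p = 3.2e-09) and 3.61-fold in RSL3-R (1.85 ± 0.07, adjusted p = 2.4e-10). XBP1, the transcript that IRE1 splices, was measured at 70.3, 71.8 and 67.98 CPM in vehicle-treated, 119.8, 143 and 139 CPM in erastin-R and 162, 157 and 159 CPM in RSL3-R libraries. Again the conditions were separate, and the smallest erastin-R value was that of replicate 1. XBP1 rose 1.91-fold in erastin-R (0.93 ± 0.07, adjusted p = 1.2e-07) and 2.27-fold in RSL3-R (1.18 ± 0.07, adjusted p = 1.2e-08).

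ATF6 had 119, 124 and 133 CPM in vehicle-treated, 162, 134 and 134 CPM in erastin-R and 208, 213 and 212 CPM in RSL3-R libraries. All RSL3-R libraries lay far above the others, whereas replicates 2 and 3 of erastin-R lay next to the highest vehicle-treated library. In RSL3-R ATF6 rose by 0.75 ± 0.08 on the log2 scale (adjusted p = 2.4e-06). In erastin-R its value was 0.19 ± 0.08 (adjusted p = 0.044), and this call was lost in 9 of 14 alternatives, with adjusted p from 0.025 to 0.17. Without erastin-R replicate 1 the log2 fold change was 0.09 (adjusted p = 0.11), and the call was also lost without vehicle replicate 1, vehicle replicate 2 or any 1 of the RSL3-R libraries. EIF2AK3, which encodes PERK, had 25.5, 26.99 and 27.4 CPM in vehicle-treated, 28.6, 35.7 and 32.6 CPM in erastin-R and 28.8, 28.03 and 24.6 CPM in RSL3-R libraries. Its RSL3-R values overlapped the vehicle-treated ones, and its erastin-R values lay just above them. On the log2 scale EIF2AK3 rose by 0.28 ± 0.10 in erastin-R (adjusted p = 0.025) and had a value of 0.03 ± 0.10 in RSL3-R (adjusted p = 0.84, 95% interval -0.18 to 0.24). The erastin-R call was lost without vehicle replicate 1 or 2 or without erastin-R replicate 2 or 3, where the adjusted p lay between 0.058 and 0.12. CREB3L2, an ER membrane factor of the ATF6 kind, rose in erastin-R (0.26) and fell in RSL3-R (-0.19, adjusted p = 0.012), the latter not past the threshold without vehicle replicate 3, RSL3-R replicate 1 or RSL3-R replicate 3. Thus 5 of the 5 sensors and factors were higher by edgeR in erastin-R, and 4 of 5 without its replicate 1. ATF6 and EIF2AK3 both lost this call without vehicle replicate 1 or 2. In RSL3-R 3 were higher and 1 lower. Of all genes tested, 27.1% were higher in erastin-R, and 23.8% were higher and 24.9% lower in RSL3-R.

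**Figure D2:**
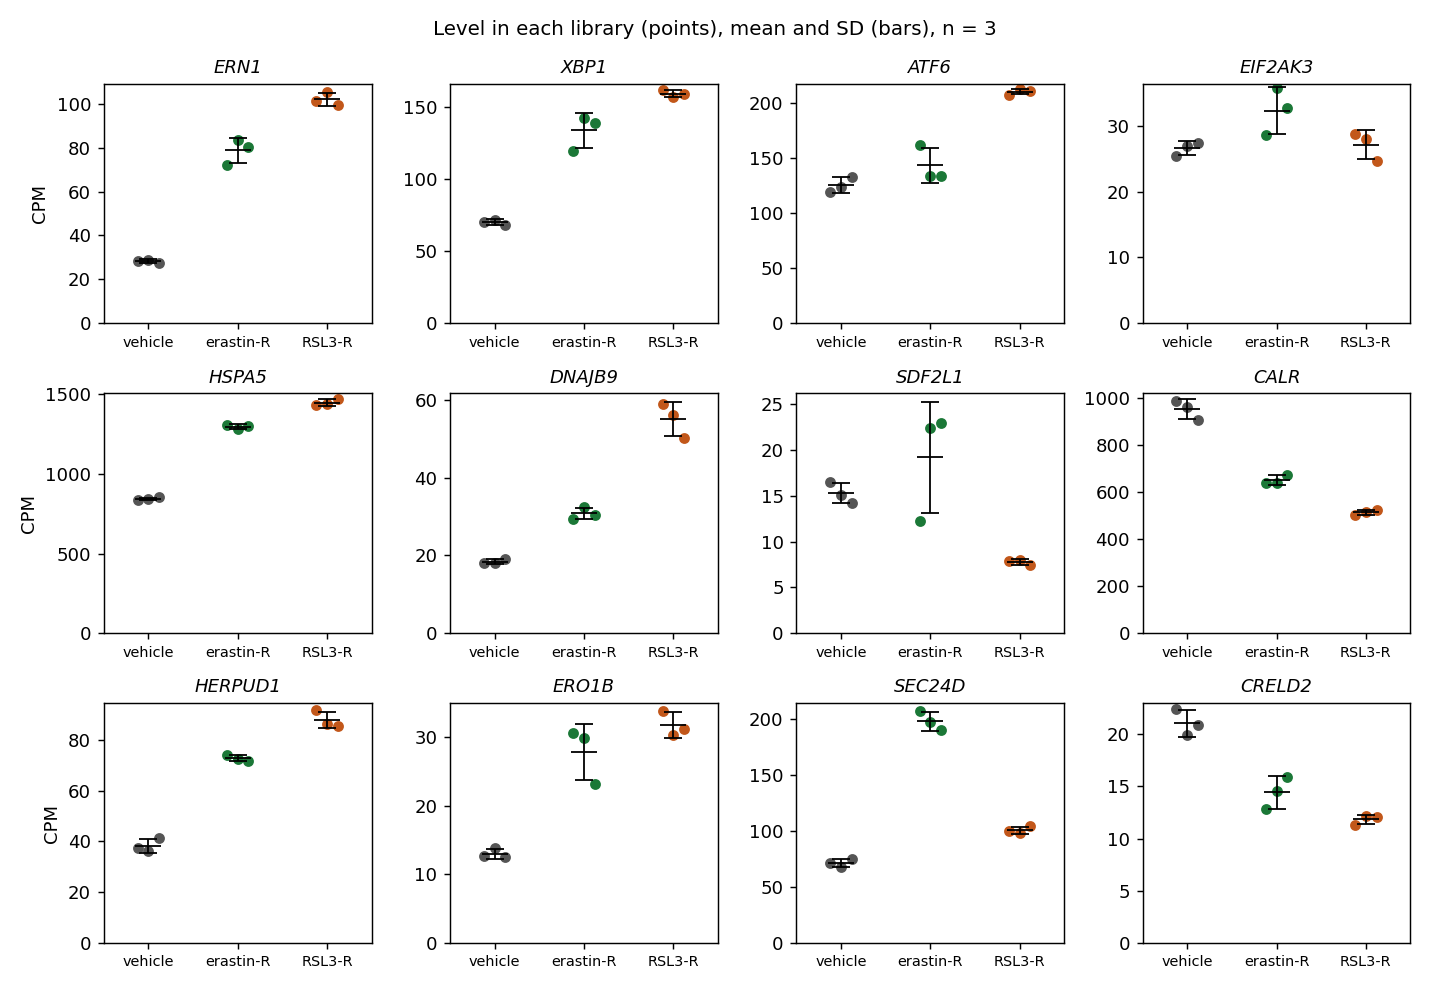
CPM (y axis, linear from 0) of 12 ER genes in each library of vehicle-treated, erastin-R and RSL3-R cells (x axis), with points for libraries and bars for the mean and SD (n = 3). ERN1, XBP1, HSPA5, DNAJB9 and HERPUD1 step up from vehicle-treated to erastin-R to RSL3-R, CALR and CRELD2 step down, SEC24D is highest in erastin-R, and SDF2L1 has a low erastin-R replicate 1.

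Of 11 chaperones, 2 were higher and 6 lower in erastin-R, where 27.1% and 26.8% of all genes tested were, and 3 were higher and 4 lower in RSL3-R, where 23.8% and 24.9% were. The RSL3-R shares of 27.3% and 36.4% lay near this background. HSPA5, the BiP chaperone that serves as the usual marker of the response, had 839, 843 and 853 CPM in vehicle-treated, 1311, 1283 and 1300.2 CPM in erastin-R and 1432, 1442 and 1475 CPM in RSL3-R libraries. The conditions did not overlap and the spread within each was small. HSPA5 rose 1.54-fold in erastin-R (0.62 ± 0.05, adjusted p = 1.7e-07) and 1.72-fold in RSL3-R (0.78 ± 0.05, adjusted p = 2e-08). Of its 50-base words, 9.54% also occur in genes outside the 36, most often in AC105250.1. Reads lying wholly within such stretches may not map uniquely, which was not tested. DNAJB9, the ERdj4 co-chaperone that returns BiP to IRE1 and a standard target of XBP1, had 17.9, 18.03 and 19.2 CPM in vehicle-treated, 29.5, 32.4 and 30.5 CPM in erastin-R and 59.1, 56.1 and 50.3 CPM in RSL3-R libraries. It rose 1.68-fold in erastin-R (0.74 ± 0.09, adjusted p = 7e-06) and 2.996-fold in RSL3-R (1.58 ± 0.08, adjusted p = 4.1e-09), and every RSL3-R library lay above every erastin-R library. THAP5 on the opposite strand overlaps 6.45% of its exon length, and whether counting used strand is not given in the sources used here.

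CALR and CANX, the calcium-binding lectin chaperones calreticulin and calnexin, parted. CALR had 990.3, 963 and 908 CPM in vehicle-treated, 641, 637 and 675 CPM in erastin-R and 503, 514 and 524 CPM in RSL3-R libraries, falling in step across the conditions without overlap. It fell by 0.55 on the log2 scale in erastin-R (adjusted p = 1.6e-06) and by 0.89 in RSL3-R (adjusted p = 1.8e-08). CANX fell by 0.52 in erastin-R (adjusted p = 2.4e-05) and stood at 0.07 on the log2 scale in RSL3-R (adjusted p = 0.39). CRELD2, a secreted ER stress protein, fell by 0.54 and 0.83 on the log2 scale in erastin-R and RSL3-R, from 22.4, 19.9 and 20.8 CPM in the vehicle-treated libraries. SDF2L1, a partner of BiP and ERdj complexes, had 16.5, 15.1 and 14.2 CPM in vehicle-treated, 12.2, 22.5 and 22.98 CPM in erastin-R and 7.87, 8.02 and 7.42 CPM in RSL3-R libraries. Replicate 1 of erastin-R lay below and the other erastin-R libraries above the vehicle-treated range, while RSL3-R was lowest without overlap. The log2 fold change of SDF2L1 was 0.33 ± 0.18 in erastin-R (adjusted p = 0.15), and 0.57 without replicate 1 (adjusted p = 4.4e-05). In RSL3-R it fell by 0.98 ± 0.20 (adjusted p = 0.001).

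The other chaperones changed less. HYOU1, the nucleotide exchange factor of BiP, and its co-chaperones DNAJB11 and DNAJC3 fell in erastin-R by 0.30, 0.44 and 0.37 on the log2 scale. Their RSL3-R values of 0.02, -0.07 and -0.03 did not pass the test. HSP90B1, the ER form of HSP90, had 1102, 1119 and 1198 CPM in vehicle-treated, 1541, 1102 and 1121 CPM in erastin-R and 1419, 1349.8 and 1415 CPM in RSL3-R libraries, with erastin-R replicate 1 the highest of all 9. It rose in RSL3-R by 0.29 (adjusted p = 0.028), a call lost without vehicle replicate 1, vehicle replicate 2 or RSL3-R replicate 2, and its erastin-R log2 fold change was 0.14, or -0.04 without replicate 1. MANF, a secreted cofactor of BiP, fell by 0.27 in RSL3-R (adjusted p = 0.031), which was not called without vehicle replicate 2 or 3 or any 1 of the RSL3-R libraries. In erastin-R it had a log2 fold change of -0.09, and -0.22 (adjusted p = 0.0066) without erastin-R replicate 1.

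The thiol oxidoreductases held 1 large rise among falls. ERO1B, which reoxidises protein disulphide isomerase, had 12.7, 13.8 and 12.5 CPM in vehicle-treated, 30.6, 29.8 and 23.2 CPM in erastin-R and 33.8, 30.3 and 31.2 CPM in RSL3-R libraries. The vehicle-treated libraries were lowest without overlap, and erastin-R and RSL3-R overlapped. ERO1B rose 2.15-fold in erastin-R (1.10 ± 0.11, adjusted p = 2.4e-06) and 2.45-fold in RSL3-R (1.29 ± 0.11, adjusted p = 5.7e-07). Its paralogue ERO1A fell instead, by 0.36 in erastin-R and by 0.20 in RSL3-R, the latter not past the threshold without vehicle replicate 3, RSL3-R replicate 1 or RSL3-R replicate 2. Of the protein disulphide isomerases, PDIA6 fell by 0.29 and 0.35 on the log2 scale in erastin-R and RSL3-R. PDIA3 fell in erastin-R (-0.46) and had -0.11 in RSL3-R (adjusted p = 0.46, and 0.018 without erastin-R replicate 1). Its reads are less certain, since 15.3% of its 50-base words are shared with the pseudogene PDIA3P1. PDIA4 had -0.06 in erastin-R and fell by 0.29 in RSL3-R, and P4HB had log2 fold changes of 0.03 and -0.13 that did not pass the test, the second with an adjusted p of 0.0036 without erastin-R replicate 1. DNAJC10, the ERdj5 reductase that prepares misfolded proteins for export, fell by 0.41 in erastin-R and rose by 0.44 in RSL3-R on the log2 scale. In all, 1 of 7 was higher and 4 lower in erastin-R (27.1% and 26.8% of all genes), and 2 higher and 3 lower in RSL3-R (23.8% and 24.9% of all genes).

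Of 8 ERAD genes tested, 4 were higher and 1 lower in erastin-R (27.1% and 26.8% of all genes), and 5 were higher and 0 lower in RSL3-R (23.8% and 24.9% of all genes). Whether these shares differ from those of other genes was not tested. The count of 0 was the same at an unadjusted p under 0.05, by DESeq2 and by limma. In RSL3-R the remaining 3 (EDEM3, DERL1 and DERL2) did not pass edgeR's test at an adjusted p of 0.05, and DERL1 did without erastin-R replicate 1, as lower (adjusted p = 0.046), and EDEM3 with only the 2 conditions in the fit, as higher (adjusted p = 0.046). HERPUD1, the membrane scaffold of the ERAD complex, had 37.4, 36.1 and 41.4 CPM in vehicle-treated, 73.97, 72.7 and 71.5 CPM in erastin-R and 91.6, 86.2 and 85.6 CPM in RSL3-R libraries. The conditions were separate in that order. HERPUD1 rose 1.90-fold in erastin-R (0.92 ± 0.07, adjusted p = 1.2e-07) and 2.29-fold in RSL3-R (1.20 ± 0.07, adjusted p = 1e-08). SEL1L, the adaptor of the ubiquitin ligase HRD1, rose in RSL3-R from 164, 168 and 179 to 309.6, 293 and 306 CPM (0.83, adjusted p = 9.9e-08). Its erastin-R values of 187, 173 and 169 CPM overlapped the vehicle-treated ones. SYVN1, which encodes HRD1 itself, rose in erastin-R by 0.42 and in RSL3-R by 0.17, the latter call lost without vehicle replicate 1 or 2 or RSL3-R replicate 1 or 2. SYVN1 shares 7.24% of its exon length with FAU on the same strand.

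The mannosidase-like EDEM proteins, which mark glycoproteins for degradation, differed among themselves. EDEM1, a standard target of XBP1, rose in RSL3-R by 0.74 (adjusted p = 5.3e-06). In erastin-R it had 0.19 (adjusted p = 0.062), or 0.30 without replicate 1 (adjusted p = 2e-06). EDEM2 rose in erastin-R by 0.65 and in RSL3-R by 0.27, the latter call lost without vehicle replicate 1 or 3 or RSL3-R replicate 1 or 2, and EDEM3 rose in erastin-R by 0.32. Of the Derlins, which form the exit channel, DERL2 fell in erastin-R by 0.32 and DERL1 had -0.01 and -0.11 in erastin-R and RSL3-R. DERL3 had 0 to 4 counts per library and was not tested. SMARCB1, on the opposite strand, covers 77% of its exon length.

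Among genes of the translocon, export and ER membrane, 1 of 4 (25%) passed the test in each resistant population, as higher. Of all genes tested, 27.1% were higher in erastin-R and 23.8% in RSL3-R. The gene that passed was SEC24D, a cargo-binding subunit of the COPII coat that carries proteins from the ER. It had 71.5, 68.1 and 75.1 CPM in vehicle-treated, 207, 197 and 189.9 CPM in erastin-R and 99.4, 97.6 and 104 CPM in RSL3-R libraries. No condition overlapped another, and erastin-R was highest. SEC24D rose 2.76-fold in erastin-R (1.47 ± 0.06, adjusted p = 9.2e-10) and 1.40-fold in RSL3-R (0.49 ± 0.06, adjusted p = 2.2e-05). The channel subunits SEC61A1 and SEC61B had log2 fold changes between -0.05 and 0.07, and the ER membrane protein WFS1 had 0.16 in erastin-R (adjusted p = 0.1, and 0.00092 without replicate 1) and 0.05 in RSL3-R.

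Most other genes of the COPII coat were higher in erastin-R too. Of 9 further coat genes, 8 were higher and 0 lower in erastin-R, where 27.1% and 26.8% of all genes tested were. Their median log2 fold change was 0.50, and 0 were lower also at an unadjusted p under 0.05, by DESeq2 and by limma. SEC23B had 0.13 (adjusted p = 0.05, past the threshold without erastin-R replicate 1). SEC24A rose by 1.14, SEC13 by 0.91 and SEC23A by 0.89 on the log2 scale. In RSL3-R 4 coat genes were higher and 2 lower (23.8% and 24.9% of all genes), with a median of 0.09. SEC24A rose by 0.45 and SEC24B by 0.22, while SAR1A, the GTPase that starts the coat, fell by 0.22 and SEC13 by 0.15. SEC13 also belongs to the nuclear pore and its mRNA is not particular to the coat.

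**Figure D3:**
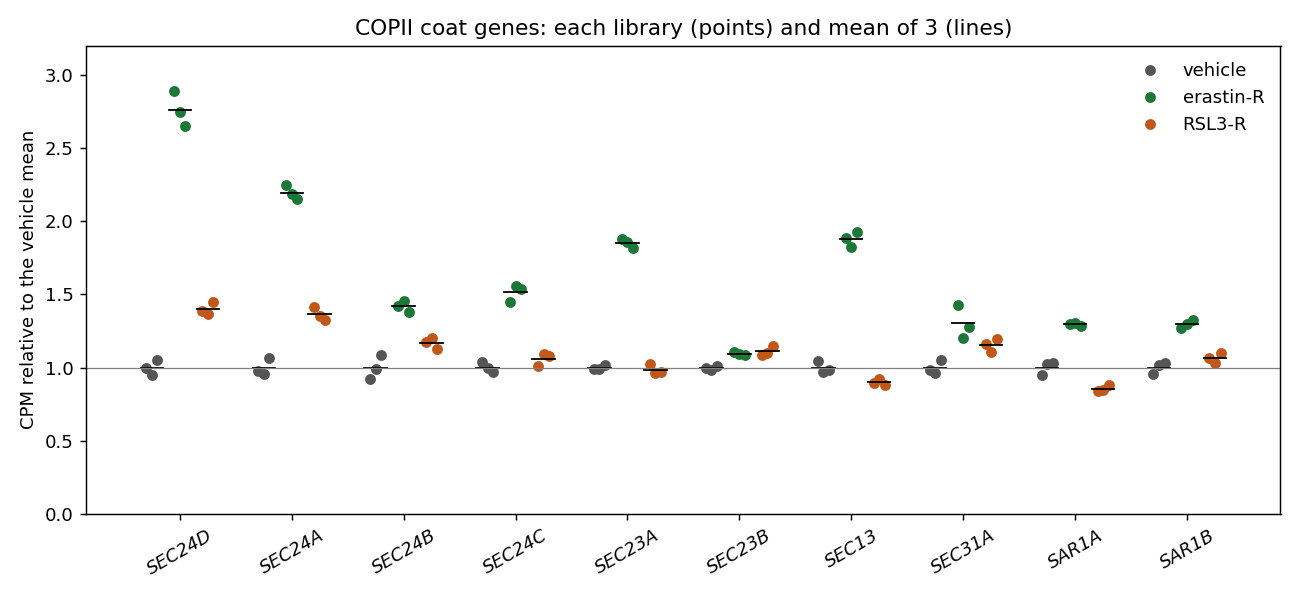
CPM of 10 COPII coat genes (x axis) relative to the mean of the vehicle-treated libraries (y axis, linear from 0), with a point for each library and a line for the mean of 3. SEC24D and SEC24A lie highest in erastin-R, and the RSL3-R points of most coat genes lie between 0.8 and 1.5.

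The textbook targets of ATF6 and XBP1 among these genes had median log2 fold changes near 0 in both resistant populations. Of 13 genes listed as ATF6 targets, 3 were higher and 5 lower in erastin-R, and 5 higher and 6 lower in RSL3-R, with median log2 fold changes of -0.06 and -0.07. These are 23.1% and 38.5% of the list in erastin-R, against 27.1% and 26.8% of all genes tested, and 38.5% and 46.2% in RSL3-R, against 23.8% and 24.9%. HSPA5, HERPUD1 and XBP1 were those higher in erastin-R, joined in RSL3-R by SEL1L and HSP90B1. CALR, CRELD2 and PDIA6 were lower in both resistant populations, and SDF2L1 had the lowest value of the list in RSL3-R (-0.98). Of 9 tested XBP1 targets, 3 were higher and 2 lower in erastin-R, and 4 higher and 0 lower in RSL3-R, with medians of -0.006 and 0.07 (0 lower also at an unadjusted p under 0.05, by DESeq2 and by limma, and 1, DERL1, without erastin-R replicate 1). DNAJB9, SYVN1 and SEC24D were those higher in erastin-R, joined in RSL3-R by EDEM1. Without erastin-R replicate 1, the ATF6 targets were 4 higher and 6 lower in erastin-R and the XBP1 targets 4 higher and 2 lower.

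The genes listed for the amino acid response were nearly all higher in the same libraries. Their list also holds stress factors such as DDIT3, ATF3 and TRIB3. ATF4 is reached from PERK as well as from GCN2, so the list does not tell these kinases apart. Of its 20 genes, 18 were higher and 1 lower in erastin-R, where 27.1% and 26.8% of all genes tested were. At least 2-fold higher were 11 of them, where 6.7% of all genes were, and the median log2 fold change was 1.40. ATF5 was the lower one (-0.69) and STC2 had 0.46 (adjusted p = 0.1). In RSL3-R 19 were higher and 0 lower, where 23.8% and 24.9% of all genes were. Of these 19, 14 rose at least 2-fold, where 6.02% of all genes did, and the median over the list was 1.89. The count of 0 lower was the same at an unadjusted p under 0.05, by DESeq2 and by limma. The remaining gene, DDIT4, had -0.10 (adjusted p = 0.59). ASNS, asparagine synthetase, rose from 2.09, 1.73 and 2.10 CPM in vehicle-treated to 27.04, 30.4 and 25.8 CPM in erastin-R and 27.3, 29.02 and 26.4 CPM in RSL3-R libraries. In erastin-R the further large rises on the log2 scale were those of SLC7A11 (2.76), the cystine importer that erastin blocks, CTH (2.64), CHAC1 (2.24) and CEBPB (1.80). In RSL3-R they were those of CHAC1 (3.84), a glutathione-degrading enzyme, NUPR1 (3.59), CTH (2.90) and TRIB3 (2.84). Within each comparison, the highest log2 fold change among the ER genes was that of ERN1, 1.48 in erastin-R and 1.85 in RSL3-R, beside 3.81 and 3.80 for ASNS.

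Of 7 genes comprising eIF2alpha itself, its kinases other than PERK, its phosphatase subunits and ATF4, 4 were higher and 2 lower in erastin-R. RSL3-R had 4 higher and 1 lower. Of all genes tested, 27.1% were higher and 26.8% lower in erastin-R, and 23.8% and 24.9% in RSL3-R. PPP1R15A, the GADD34 subunit that reverses eIF2alpha phosphorylation, rose by 0.81 and 1.19 on the log2 scale in erastin-R and RSL3-R, and PPP1R15B, its constitutive counterpart, by 0.41 and 0.62. ATF4 mRNA rose by 0.30 and 0.68. EIF2AK2, which encodes the kinase PKR, fell by 0.50 in erastin-R, and EIF2S1, which encodes eIF2alpha, fell by 0.36 and 0.44. Among the eIF2alpha kinases, EIF2AK4 (GCN2) rose by 0.30 and 0.43, beside the values of 0.28 and 0.03 for EIF2AK3 (PERK). mRNA levels of these kinases do not report their activity.

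**Figure D4:**
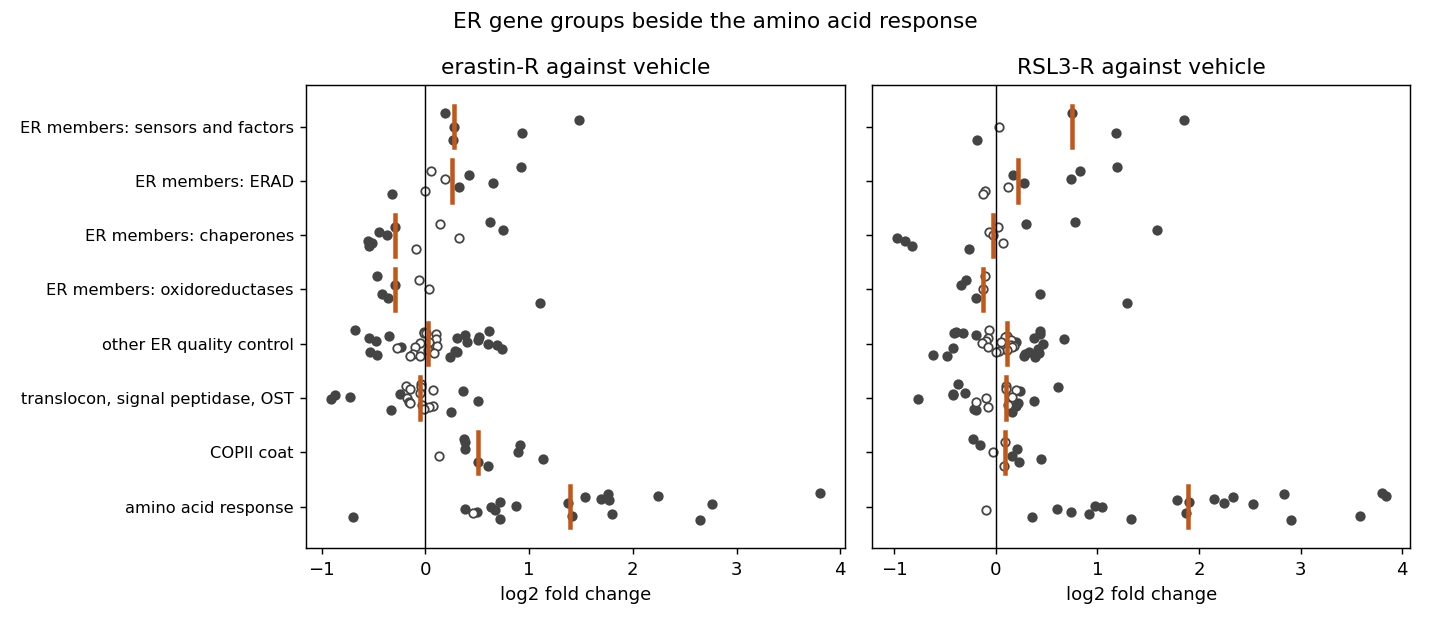
Log2 fold change (x axis) of each gene tested in 4 role groups of the ER genes and in 4 further lists (y axis), for erastin-R and RSL3-R against vehicle-treated cells. Filled points passed an adjusted p of 0.05, open points did not, and the orange bar is the list's median. The amino acid response has its median at 1.40 and 1.89, while chaperones and oxidoreductases spread on both sides of 0.

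RSL3-R against erastin-R cells compared the resistant populations directly. Of the 35 genes, 16 were higher and 11 lower in RSL3-R, with 22.3% and 26.9% of all genes tested as background. None was higher by 2-fold by edgeR, adjusted or not, nor by DESeq2 or limma, where 6.86% of all genes were, and SDF2L1 was lower by 2-fold, 1 of 35, where 3.48% of all genes were. The median log2 difference was 0.15 over the ER genes and -0.02 over all genes tested. The number of lower genes was 7 without RSL3-R replicate 3 and 12 without erastin-R replicate 1, when 18 were higher. SDF2L1 was lower in RSL3-R, with a difference of -1.30 ± 0.20 on the log2 scale (adjusted p = 9.5e-05), and of -1.55 without erastin-R replicate 1. SEC24D followed with a log2 difference of -0.98 ± 0.06 (adjusted p = 3.9e-08), and 8 of the 9 further COPII genes were lower too, with a median of -0.51.

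Higher in RSL3-R were DNAJC10 (0.85 on the log2 scale), DNAJB9 (0.84, adjusted p = 2.2e-06) and SEL1L (0.78), followed by CANX (0.59), ATF6 (0.55, adjusted p = 4.3e-05) and EDEM1 (0.55). ERN1 (0.37), HERPUD1 (0.27), XBP1 (0.25) and HSPA5 (0.16, adjusted p = 0.014) differed by smaller amounts, and HSPA5 was not called after quantile normalization (adjusted p = 0.10). ERO1B had a difference of 0.19 (95% interval -0.04 to 0.42, adjusted p = 0.16), and 0.26 (adjusted p = 0.028) without erastin-R replicate 1. HYOU1, DNAJB11, DNAJC3, PDIA3, DERL2 and ERO1A completed the 16, with differences from 0.16 to 0.38. The calls of PDIA3, DERL2 and ERO1A were lost without single libraries, namely erastin-R replicate 2 or 3 for PDIA3, erastin-R replicate 2 and RSL3-R replicates 1 and 2 for DERL2, and vehicle replicates 1 and 2, erastin-R replicate 3 and RSL3-R replicate 3 for ERO1A.

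Lower in RSL3-R, besides SDF2L1 and SEC24D, were CREB3L2 (-0.45), EDEM2 (-0.38), CALR (-0.34), CRELD2 (-0.29), SYVN1, EIF2AK3 (-0.25), PDIA4 (-0.23), EDEM3 (-0.21) and P4HB (-0.16), with -0.25 for SYVN1. EIF2AK3 (adjusted p = 0.044) and CRELD2 (adjusted p = 0.044) lost their calls in 13 and 12 of 14 alternatives. For EIF2AK3 the exception was the fit without erastin-R replicate 1, and for CRELD2 the fits without erastin-R replicate 1 and after quantile normalization. P4HB was not called without erastin-R replicate 2 or 3 or RSL3-R replicate 1 or 3, nor was EDEM3 without RSL3-R replicate 2 or 3, and SYVN1 was not called after quantile normalization (adjusted p = 0.057). HSP90B1, MANF, PDIA6, DERL1, SEC61A1, SEC61B and WFS1 completed those tested, with values between -0.18 and 0.15. Without erastin-R replicate 1, HSP90B1 was higher in RSL3-R by 0.33 (adjusted p = 8.7e-08) and WFS1 was lower (log2 difference -0.20, adjusted p = 0.0051), and without erastin-R replicate 3 MANF was lower (log2 difference -0.27, adjusted p = 0.035). In the amino acid response 13 of 20 were higher and 3 (SLC7A11, DDIT4 and CEBPB) lower in RSL3-R than in erastin-R. Of all genes tested 22.3% were higher and 26.9% lower, and the median log2 difference of the 20 was 0.43.

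Scaled to the length annotated for each gene, the most abundant ER genes changed places. This length is 1 value per gene and not that of the transcripts expressed, so ranks between genes depend on the annotation. In vehicle-treated cells CALR led at 348 ± 14.6 FPKM (fragments per kilobase of exon, scaled to library size), followed by HSP90B1 at 240.2 ± 11.2, CANX at 228 ± 11.03 and HSPA5 at 214 ± 2.25 FPKM (mean ± SD, n = 3). HSP90B1 and CANX, and likewise CANX and HSPA5, differed by little more than the SD of CANX, whereas HSP90B1 and HSPA5 lay further apart. In erastin-R cells HSPA5 led at 327 ± 3.40 FPKM, above HSP90B1 at 263 ± 51.02, CALR at 237 ± 8.55 and CANX at 159 ± 15.2 FPKM, with HSP90B1 and CALR within the spread that replicate 1 gave HSP90B1. In RSL3-R cells HSPA5 stood at 368 ± 6.39 FPKM, HSP90B1 at 295 ± 8.68, CANX at 241 ± 4.45 and CALR at 188 ± 4.16 FPKM, each beyond the spread of the next. CALR thus went from first to last of the 4 by FPKM. By mean CPM, which ignores length, CALR (954) already lay below CANX (1435) and HSP90B1 (1140) in vehicle-treated cells. P4HB and PDIA4, at 116 ± 3.24 and 103 ± 1.02 FPKM in vehicle-treated cells, came next. The sensors were far less abundant, with ERN1 at 2.57 ± 0.0739, 7.15 ± 0.549 and 9.32 ± 0.255 FPKM in vehicle-treated, erastin-R and RSL3-R cells and EIF2AK3 at 4.85 ± 0.197, 5.87 ± 0.654 and 4.96 ± 0.400 FPKM. By FPKM ERN1 was thus below EIF2AK3 in vehicle-treated cells and above it in RSL3-R cells, each by more than the spread. Their mean CPM in vehicle-treated cells, without regard to length, was 28.3 for ERN1 and 26.6 for EIF2AK3.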

How the data were processed

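RNA of 9 libraries was analysed here. Per the labels and the methods of the study, polyadenylated RNA was sequenced on Illumina instruments, and the submitters' processing notes name HISAT2 2.0.5 and featureCounts 1.5.0-p3. The authors deposited, per gene and library, a count of uniquely mapped exonic reads, without normalization, and FPKM values made from the same counts, whose implied library sizes were 0.990 to 1.04 times the total count. The strand setting is not given in the sources used here. Gene identifiers and coordinates equal GENCODE release 29 (GRCh38) for 58724 of 58735 genes. Columns of the authors' own comparisons were not used.

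Counts were normalized by TMM and fitted with edgeR 4.0.16 (R 4.3.3, filterByExpr, quasi-likelihood test, 1 model of 9 libraries, no covariate). p-values were adjusted by Benjamini-Hochberg over 16188 genes, a call needs an adjusted p under 0.05, and the 2-fold counts add a log2 fold change beyond 1 in size. CPM are TMM-scaled, FPKM served for levels between genes, and 95% intervals use the fit's t quantile. The common dispersion corresponded to a coefficient of variation of 8.56%. The fit was tested on simulated data with known changes. Alternatives were DESeq2 1.42.0, quantile normalization with limma 3.58.1, no filter, only the 2 conditions compared, a replicate block, and each of 9 libraries left out. Motifs were searched in RefSeq promoter windows, and figures drawn with Python 3.11.15 and matplotlib 3.10.9.

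The genes, the lists and the tests were chosen with earlier results of these data known. Values in every library are given for genes past 2-fold in any comparison and for HSPA5, ATF6, ERN1, EIF2AK3 and XBP1, together with a few others and with genes that complete a small count, which were chosen after their values were seen. From each further list the 3 largest changes past the test are named, and 5 from the amino acid response.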

Additional observations from a re-analysis of the deposited data

How the results depend on the processing

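Over 14 alternatives to each of the 105 tests of single ER genes (35 in each of 3 comparisons), no called direction was reversed, a call was lost 87 times and gained 16 times. The cause was not tested. The median log2 fold change of the ER genes in RSL3-R against vehicle-treated cells was 0.0371 without a filter and 0.0909 after quantile normalization, and the median of RSL3-R against erastin-R 0.122 without a filter and 0.191 with only the 2 conditions in the fit, which also gave 7 lower ER genes instead of 11. Leaving out 1 library at a time gave 5 to 11 lower ER genes in RSL3-R against vehicle-treated cells, 0 to 1 of them 2-fold, with medians from 0.0386 to 0.103, and amino acid response medians from 1.78 to 2.01. For RSL3-R against erastin-R it gave 7 to 12 lower ER genes, 1 to 2 of them 2-fold, medians from 0.0737 to 0.177, amino acid response medians from 0.410 to 0.501 and 0 to 1 amino acid response genes lower 2-fold.

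With the replicate number as a block, 12 ER genes were higher and 11 lower in erastin-R (13 and 11 without the block), 13 and 8 in RSL3-R (14 and 8), and 15 and 9 in RSL3-R against erastin-R (16 and 11). The numbers were not taken as a pairing. After subtracting condition means, the correlation across genes was -0.015 on average over 9 pairs with the same number and 0.00764 over 18 pairs with different numbers, and 2 of 9 libraries correlated best with their own number. Depth limited DERL3 only, with 4 counts at most.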

Other observations

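Beyond the 36 ER genes, 2 further lists of ER genes were counted. Of 34 other genes of ER quality control and ERAD, 12 were higher and 7 lower in erastin-R cells and 12 higher and 7 lower in RSL3-R cells. These are 35.3% and 20.6% of the list in each comparison. Of all genes tested, 27.1% were higher and 26.8% lower in erastin-R, and 23.8% and 24.9% in RSL3-R. The median log2 fold changes of the list were 0.03 and 0.11. In erastin-R cells the largest changes on the log2 scale were those of FKBP14 (0.73), a prolyl isomerase, TXNDC5 (0.69), a protein disulphide isomerase, and the ERAD lectin OS9 (-0.68). In RSL3-R cells they were those of UGGT2 (0.67), a glycoprotein folding sensor, ATF6B (-0.62), the paralogue of ATF6, and CREB3 (-0.48). ATF6 and ATF6B thus had opposite signs in RSL3-R cells, 0.75 and -0.62, both past the test.

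Of 21 genes of the translocon, signal peptidase and oligosaccharyltransferase, 3 were higher and 5 lower in erastin-R cells and 6 higher and 7 lower in RSL3-R cells. In erastin-R these are 14.3% and 23.8% of the list, against 27.1% and 26.8% of all genes tested. In RSL3-R they are 28.6% and 33.3%, against 23.8% and 24.9%. The medians of the list were -0.05 and 0.10. The signal peptidase subunits SEC11C, SPCS2 and SPCS3 fell in erastin-R cells by 0.91, 0.87 and 0.73 on the log2 scale. In RSL3-R cells SEC11C fell by 0.76 and SPCS1 by 0.43, and SEC63 of the translocon rose by 0.61. Without erastin-R replicate 1 the second list had 9 lower genes in erastin-R cells, and 9 higher and 8 lower in RSL3-R cells.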
